A study of Mus musculus with 2 samples.

Results

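Genes of DNA methylation and demethylation were followed through peak lists of the chromatin remodeller CHD2. They were Dnmt1, Dnmt3a, Dnmt3b, Dnmt3l, Uhrf1, Tet1, Tet2, Tet3, Tdg and Mbd3. The 10 were chosen by symbol, not by a measured value, but with earlier results of these data known. All 10 were found among the 21531 protein-coding genes that could be given a strand. For each gene, every peak was collected whose summit lay in the gene or within 10 kb of either end. CHD2 was precipitated from ES-E14 cells, embryonic stem cells from a male mouse embryo of the 129/Ola strain. They form 1 group of 2 biological replicates, and no treatment or genotype contrast is named. The optimal list (8282 peaks) and the conservative list (7530) hold mm10 peaks that passed thresholds on reproducibility, while relaxed lists of 300000 peaks, one for each replicate and one pooled, also take in background and were read by rank. Both replicates carry the same biosample record, so how far their cultures were separate is not given, and the spread between them may be technical. Peak lists hold no expression values, so the identity of the line was not checked against marker genes.

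Methyl groups on cytosines of CpG dinucleotides are set by DNMT3A and DNMT3B, with the catalytically inactive DNMT3L as their partner. After replication UHRF1 recognises the half-methylated DNA and brings in DNMT1, which copies the mark. TET1, TET2 and TET3 oxidise methylcytosine, and the glycosylase TDG cuts out the most oxidised forms so that repair can restore cytosine. MBD3 belongs to the methyl-CpG binding domain family and is a subunit of the NuRD deacetylase and remodelling complex. Embryonic stem cells express DNMT3A mainly as the short isoform DNMT3A2, which is transcribed from a promoter inside the gene, and TET1 and TET2 are the main TET enzymes there.

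The sequences right before 3 starts that a peak overlapped are shown first: the 2 starts with an optimal peak within 1 kb upstream, and Tdg. At Tdg the relaxed lists, pooled and of each replicate, held a peak within 1 kb, and the optimal list held none. A pooled peak also overlapped the second start of Uhrf1, described with that gene. They are RefSeq windows of GRCm38.p6, written 5′ to 3′ on the strand of the gene and ending at the base before the start, and capitals mark exact matches, on either strand, to one of the 12 motifs searched. The RefSeq promoter table held 17 windows for the 10 genes. At Mbd3 (chr10:80399532-80399781, minus strand) the optimal peak covered the first 178 bases and had its summit 3 bases before them. At the internal start of Dnmt3a (chr12:3891494-3891743, plus strand) the optimal peak covered the first 144 bases, with its summit 36 bases before them. At Tdg (chr10:82629588-82629837, plus strand) a peak of the pooled relaxed list, not of the optimal list, covered the first 165 bases.
Mbd3: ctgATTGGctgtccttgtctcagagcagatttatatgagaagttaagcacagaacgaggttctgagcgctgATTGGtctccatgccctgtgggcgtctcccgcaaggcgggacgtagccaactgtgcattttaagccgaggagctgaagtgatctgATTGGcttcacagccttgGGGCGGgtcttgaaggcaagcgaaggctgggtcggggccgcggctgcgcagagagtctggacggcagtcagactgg
Dnmt3a: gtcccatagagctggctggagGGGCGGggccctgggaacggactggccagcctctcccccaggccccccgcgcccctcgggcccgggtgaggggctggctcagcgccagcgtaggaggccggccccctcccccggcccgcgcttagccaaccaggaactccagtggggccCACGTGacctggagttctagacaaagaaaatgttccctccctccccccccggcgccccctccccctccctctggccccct
Tdg: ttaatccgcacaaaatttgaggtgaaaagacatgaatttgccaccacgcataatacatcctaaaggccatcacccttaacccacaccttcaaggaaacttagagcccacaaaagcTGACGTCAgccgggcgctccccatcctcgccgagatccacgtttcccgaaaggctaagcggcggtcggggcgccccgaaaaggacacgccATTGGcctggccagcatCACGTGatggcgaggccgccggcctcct
The Mbd3 stretch held CCAAT, the box bound by NF-Y, in 3 places and GGGCGG, the GC box of Sp factors, in 1. The Dnmt3a stretch held 1 GC box and 1 CACGTG, the E-box, and no CCAAT. In the Tdg stretch there were 1 CCAAT, 1 E-box and 1 TGACGTCA, the cyclic AMP response element.

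Summits on the second genome build, mm9, could be read from the genome sequence. The following 101 bases are centred on 5 of the 8 mm9 summits at these loci and run on the strand of the member named, with capitals as before. The 2 strongest, beyond the 3′ ends of Dnmt3l (chr10:77530153-77530253, plus strand, between genes) and Uhrf1 (chr17:56465162-56465262, plus strand, between genes), are set beside 3 in introns. These lay in Dnmt3b (chr2:153486545-153486645, plus strand), Tet2 (chr3:133187804-133187904, minus strand) and Tet3 (chr6:83327859-83327959, minus strand).
Dnmt3l, beyond the end: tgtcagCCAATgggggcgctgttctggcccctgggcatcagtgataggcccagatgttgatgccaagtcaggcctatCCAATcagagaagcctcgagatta
Uhrf1, beyond the end: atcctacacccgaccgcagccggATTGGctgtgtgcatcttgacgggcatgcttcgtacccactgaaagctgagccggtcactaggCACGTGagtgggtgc
Dnmt3b, intron: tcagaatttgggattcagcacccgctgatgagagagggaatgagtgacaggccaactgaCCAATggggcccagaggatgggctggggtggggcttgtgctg
Tet2, intron: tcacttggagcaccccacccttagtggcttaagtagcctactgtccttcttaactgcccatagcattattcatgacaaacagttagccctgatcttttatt
Tet3, intron: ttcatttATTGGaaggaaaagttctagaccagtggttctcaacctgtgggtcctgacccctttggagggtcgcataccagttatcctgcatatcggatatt
The Dnmt3l summit lay among 2 CCAAT boxes. The Uhrf1 summit had 1 CCAAT and 1 E-box, and with 7 CpG dinucleotides it was the richest in CpG of the 5 printed. No motif was matched at Tet2, nor at the summits not printed, those of Tet1 and of the Dnmt3b flank. Over the 8 member summits CCAAT was found in 4, beside 38.2% of all 4613 mm9 summit windows of the same length, and CACGTG in 1, beside 2.25%. These letters describe the windows and do not show which factor was bound.

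CHD2 lay at the outer promoter of 1 of the 10 genes, Mbd3, but in the wider locus of 8. Mbd3 is 10% of the list, beside 14.1% of all protein-coding genes with an optimal peak within 1 kb of the outer 5′ end (exact 95% interval 13.6 to 14.6). That interval is for all genes and not for the 10 members, and no difference is read from 1 of 10. The optimal list, which was made from both replicates, put 18 peaks into the 10 loci: 2 at the Mbd3 promoter, 10 inside the 6 genes of the Dnmt3 and Tet families and beyond their promoters, and 6 in the flanks of Dnmt3b, Dnmt3l, Uhrf1 and Tet1. Any locus peak was found at 30.4% of all protein-coding genes and at 33.5% of the 13326 genes with lengths in the members' range, from 6993 to 112885 bp. Dnmt1 and Tdg had no optimal peak. Among replicate 1's 8282 strongest peaks 2 genes had a promoter peak, and among replicate 2's 1 gene did.

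Several loci held more than 1 peak. At least 2 optimal peaks were found at 6 of the 10 genes, at least 3 at Dnmt3l, Tet1 and Tet3, and 4 at Tet1. Among genes of the members' length range the shares were 10.2%, 3.26% and 1.06%. The members carried 1.8 peaks per locus on average, beside 0.485 in that length range and 0.459 over all protein-coding genes. That range is wide, the members were not matched by length within it, and a longer gene has more room for peaks. These shares and means are therefore not adjusted for length. Not every one of these peaks was closest to its member. Of the 18, 14 had the member as the nearest protein-coding gene start among the mm10 starts, and 7 members kept such a peak. These counts differed between the replicates. With replicate 1's 8282 strongest peaks alone, the 10 loci held 11 peaks, 3 genes had at least 2 and 0 had 3 or more, where replicate 2's gave 19 peaks and 6, 3 and 1 genes. The conservative list gave 4, 1 and 0 genes, and 2 of the 3 Tet3 peaks overlap each other. The genes were chosen with earlier results known, and no test was made on these counts.

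**Figure D1:**
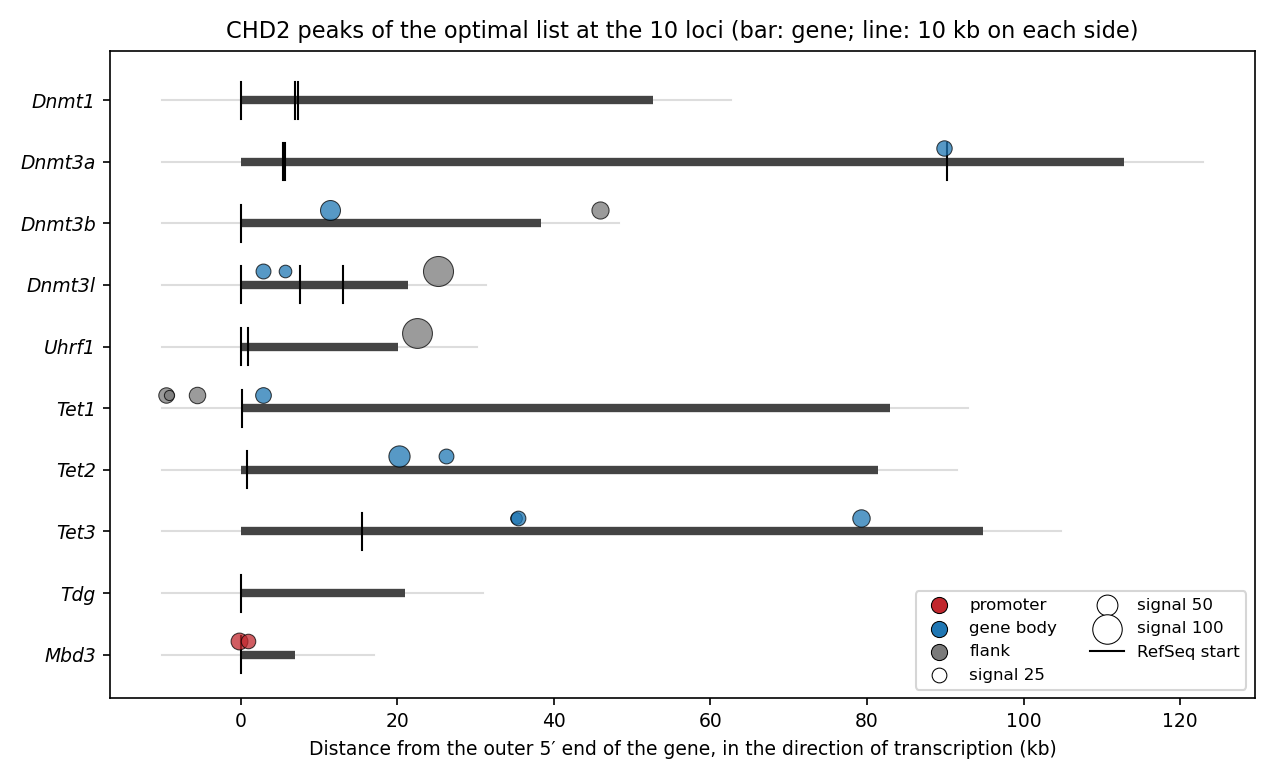
Optimal CHD2 peaks at the 10 loci, placed by distance in kb from the outer 5′ end of each gene along the direction of transcription. Dark bars are genes, thin lines the 10 kb on each side, upright ticks RefSeq starts, and the area of a circle is proportional to the deposited signal. Most peaks sit inside the gene or in a flank, and red promoter peaks appear at Mbd3 alone.

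The signals of these peaks were mostly moderate. Signal is the caller's own value for a peak, with no stated normalization, and is compared within 1 list only. Their median was 27.9, beside 29.6 over all 8282 optimal peaks, and 8 of the 18 lay above the median of the list. By class, the 10 peaks inside genes ran from 15.7 to 51.9 and the 6 flank peaks from 12.0 to 104. Peaks at protein-coding promoters in the whole list had a median of 40.2 (n = 2893) and all other peaks 26.8 (n = 5389). The upstream Mbd3 peak was stronger than 39.8% of promoter peaks, and the Tet2 intron peak, the strongest inside a gene, than 86.6% of the peaks elsewhere. These are unlike reference sets, and against the whole optimal list the shares were 56.6% and 77.5%. The median signal was 28.5 for the 2 promoter peaks and 26.4 for the 10 inside genes.

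Among the de novo enzymes, Dnmt3a (chr12:3801559-3914443) had its single optimal peak not at its outer 5′ end but at -286 bp from an internal start, 90185 bp into the gene. The peak (chr12:3891278-3891637) had a signal of 27.3 and rank 4649 of the optimal list. In replicate 1 it had a signal of 15.8 at rank 4325, and in replicate 2 a signal of 9.83 at rank 11739, each out of 300000 relaxed peaks. Both relaxed lists thus held it, but in replicate 2 it fell outside the 8282 strongest peaks, so that this replicate alone gave 0 peaks at the locus at the length of the optimal list. The table used here does not name the isoform that begins at this start, and the long non-coding gene Gm31623 spans it as well. Around the 2 RefSeq starts near the outer end no peak within 1 kb appeared in any mm10 list, and replicate 2 alone had one at the outer end itself, at rank 147706. A further peak at -1355 bp from the internal start was in the conservative list (signal 17.0, rank 6684) but not in the optimal one. When each annotated RefSeq start was allowed as a promoter, 2 of the 10 genes had a promoter peak, Mbd3 and Dnmt3a, beside 16.3% of 17492 genes. At the length of the optimal list the count was 3 genes in replicate 1 and 1 in replicate 2.

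Dnmt3b (chr2:153649411-153687730), the other de novo enzyme, carried 2 peaks, neither at its start. The stronger one lay 11460 bp into the gene (chr2:153660691-153661050) with a signal of 46.0 at rank 2213, above 73.3% of the optimal list. Its signal was 19.9 in replicate 1 (rank 2971) and 24.4 in replicate 2 (rank 2195). A peak 7529 bp beyond the 3′ end (chr2:153695079-153695438) had a signal of 33.9, with 16.9 in each replicate and ranks of 3807 and 3990. These 2 peaks stood at closely similar places in both replicates. Among the mm10 starts used here, the nearest to the flank peak was that of the pseudogene Dnmt3b-ps1, with the peak at -11225 bp. On mm9 the Dnmt3b peak beyond the 3′ end lay at -1417 bp from the start of Gm14490. Within 1 kb of the Dnmt3b start the relaxed lists held only a peak at rank 251355 of the pooled list and one at 284057 of replicate 1, near the bottom of 300000.

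Dnmt3l (chr10:78042287-78063622), the inactive partner, had 3 optimal peaks. The strongest of all 18 lay 3836 bp beyond its 3′ end (chr10:78067373-78067530), with a signal of 104 at rank 743. It had 55.4 in replicate 1 (rank 727) and 47.1 in replicate 2 (rank 897). This peak lay inside the long non-coding gene Gm51775 and at -1910 bp from the start of Icosl, a ligand of the T cell costimulator ICOS, which is the closest annotated start. The other 2 lay inside the gene and were uneven between replicates. One at 2852 bp (chr10:78044959-78045318, signal 25.6) had 18.1 in replicate 2 at rank 3576 and 7.73 in replicate 1 at rank 23422, and lay at -1529 bp from the start of the neighbouring Aire, a regulator of tissue antigens in the thymus. The next, at 5721 bp (chr10:78047828-78048187, signal 18.3), ranked 5198 in replicate 2 and 170811 in replicate 1. Neither was in the conservative list.

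For maintenance methylation, Dnmt1 (chr9:20907206-20959888) had no optimal or conservative peak in its locus. The 20000 strongest pooled peaks held 2 in the gene, 8591 and 8823 bp downstream of its last annotated start, with signals of 13.8 and 16.0 at ranks 18883 and 13364. Neither replicate's 20000 strongest peaks contained a peak there. Near the start sites the best pooled peak ranked 71074, the best of replicate 2 ranked 58056, and replicate 1 had none in its 300000. The last of the 3 Dnmt1 windows was rich in CpG, with an observed over expected ratio of 0.91, higher than 84% of the 21263 promoter windows of protein-coding genes.

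Uhrf1 (chr17:56303337-56323486) had 1 optimal peak in its locus, and this peak was closest to the start of a neighbour. It lay 2307 bp beyond the 3′ end (chr17:56325743-56325837), at -177 bp from the start of Kdm4b, which encodes a histone H3 lysine demethylase. Its signal was 103 at rank 761, with 37.1 in replicate 1 (rank 1213) and 63.2 in replicate 2 (rank 550). At the Uhrf1 start itself a pooled peak of signal 23.1 at rank 6534 (chr17:56303973-56304332) lay at -160 bp from the second annotated start. It was not in the optimal list although weaker peaks were. In replicate 1 that region had a signal of 16.9 at rank 3822. In replicate 2 the strongest peak within 1 kb of that start had 8.11 at rank 18547. The replicates thus placed this region at distant ranks.

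Tet1 (chr10:62804570-62887469) had 4 optimal peaks, spread over 12382 bp from -9554 to 2828 bp around its outer 5′ end and none within 1 kb of it. The peak at -5533 bp (chr10:62892822-62893181) was the strongest, with a signal of 31.2, and had 12.4 in replicate 1 (rank 6613) and 24.5 in replicate 2 (rank 2182). At -9554 bp (chr10:62896843-62897202) the signal was 27.5, with 16.1 in replicate 1 (rank 4168) and 12.2 in replicate 2 (rank 7473). The peak inside the gene (chr10:62884461-62884820) had a signal of 28.3, with 23.6 at rank 2319 in replicate 2 and 5.83 at rank 69570 in replicate 1. The weakest peak, at -9104 bp (signal 12.0), had rank 14229 in replicate 1 and no overlapping peak in replicate 2. Thus 2 of the 4 stood in the 20000 strongest peaks of both replicates. The long non-coding gene Gm51805 spans this whole stretch. With 20000 peaks allowed, the Tet1 locus held 8 peaks in the pooled list, 5 in replicate 1 and 9 in replicate 2, more than any other member in each of these lists.

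Tet2 (chr3:133463677-133545136) had 2 peaks inside the gene and none in a flank. The peak 20246 bp from the outer 5′ end (chr3:133524710-133525069) was the strongest within any of the 10 genes, with a signal of 51.9 at rank 1865. It had 31.1 in replicate 1 (rank 1515) and 21.6 in replicate 2 (rank 2659). A second at 26240 bp (chr3:133518716-133519075, signal 25.3) had 17.1 in replicate 2 at rank 3926 and 8.05 in replicate 1 at rank 20343, just past the 20000 strongest. The Tet2 start had the most CpG of all 17 windows, 57 dinucleotides in 300 bases, and no optimal peak within 1 kb.

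Tet3 (chr6:83362373-83457208) had 3 optimal peaks inside the gene, of which 2 overlapped each other by 155 bp. The overlapping pair, 19623 and 19828 bp downstream of the single RefSeq start, had signals of 15.7 and 24.98. Both were joined to the same peak of each replicate, with 14.95 at rank 4734 in replicate 1 and 12.9 at rank 6690 in replicate 2. The third peak (chr6:83377747-83378106) lay 79281 bp from the outer 5′ end and had a signal of 34.95, with 8.98 in replicate 1 (rank 14400) and 20.4 in replicate 2 (rank 2917). Among the mm10 starts used here the nearest protein-coding one to it was that of Bola3, a mitochondrial iron-sulfur cluster assembly factor, 28451 bp away. On mm9 the intron peak of Tet3 lay 1987 bp downstream of the start of a Tet3 transcript, the nearest start of any gene. At the RefSeq start replicate 1 alone had a peak within its 20000 strongest, at -278 bp and rank 11891.

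Tdg (chr10:82629814-82650799), the glycosylase that ends active demethylation, was the second gene without an optimal peak. A pooled peak of signal 19.7 lay at -241 bp from its outer 5′ end (chr10:82629393-82629752) at rank 8683. The replicates placed it at rank 11758 (signal 9.65) and, at -327 bp from that end, at rank 21989 (signal 7.58). Replicate 2 and the pooled list also held a peak at -6268 bp, with signals of 8.93 and 16.1. No Tdg peak ranked among the first 8282 of the pooled list or of either replicate.

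Mbd3 (chr10:80392539-80399531), the NuRD subunit, had both of its optimal peaks at the promoter. The upstream one at -253 bp (chr10:80399604-80399963) had a signal of 32.7 at rank 3596, and was alike in the replicates, with 16.8 at rank 3868 in replicate 1 and 16.9 at rank 4013 in replicate 2. The second peak, 994 bp into the gene (chr10:80398357-80398716, signal 24.4), counted as a promoter peak by only a few bases. It ranked 4618 in replicate 2 and 40954 in replicate 1 and was not in the conservative list. Mbd3 is the shortest of the 10 genes, at 6993 bp, and had no peak in its flanks.

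**Figure D2:**
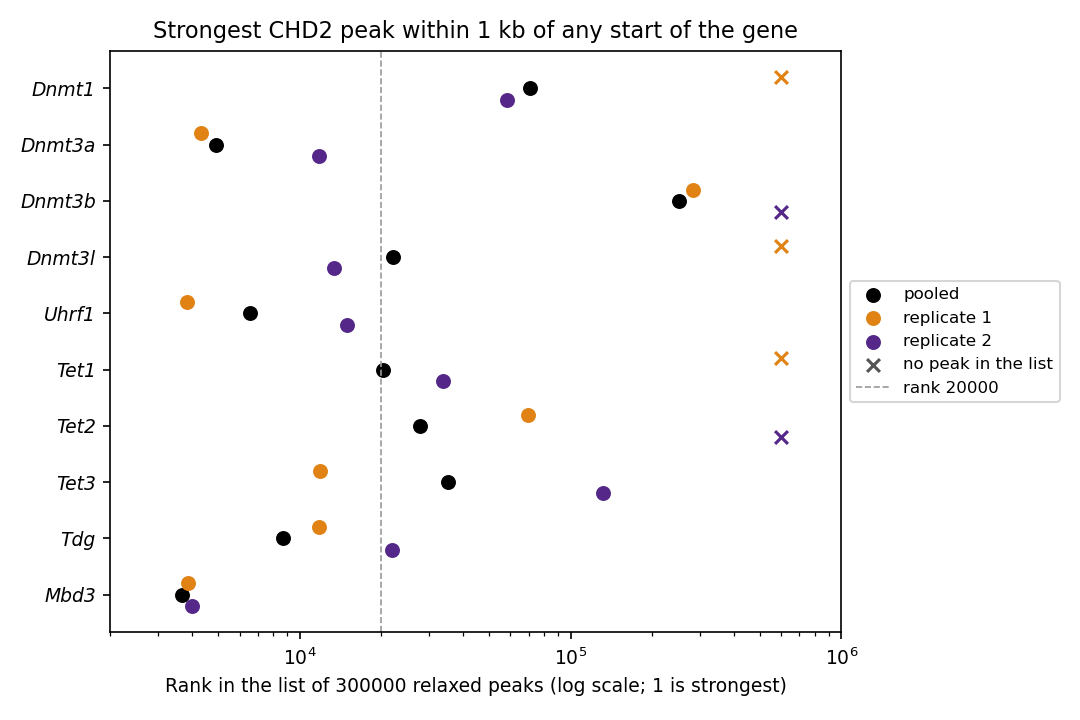
Rank of the strongest CHD2 peak within 1 kb of any annotated start of each gene, on a log axis where 1 is the strongest, for the pooled list and each replicate. Crosses at the right mark lists of 300000 peaks that held none there, and the dashed line is rank 20000. Mbd3 stands at ranks 3676 to 4013 in the 3 lists, Dnmt3a and Uhrf1 stay to the left of the line in each, and Dnmt3b stands far to the right.

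How often the members' peaks recurred was then read from each replicate's own list. Among the 20000 strongest peaks, 13 of the 18 were overlapped in replicate 1 and 17 in replicate 2, where 85.4% and 88.6% of all optimal peaks were. Both replicates overlapped 12 of the 18 (66.7%), beside 75.8% of all. For replicate 1 the members' share, 72.2%, was the lower of the 2, and for replicate 2, at 94.4%, the higher. With as many peaks as the optimal list from each replicate, both overlapped 10 (55.6%), beside 52.9%. The conservative list overlapped 12 of the 18, or 66.7%, beside 72.4% of all optimal peaks. In the shares held by both replicates, the members lay near the whole list.

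The peaks that failed to recur leaned to 1 replicate. Of the 18, 5 were in the 20000 strongest of replicate 2 and not in those of replicate 1: 2 in Dnmt3l and 1 each in Tet1, Tet2 and Mbd3. This is 27.8%, where 12.8% of all optimal peaks were of this kind. In replicate 1 these 5 had ranks from 20343 to 170811, and in replicate 2 from 2319 to 5198. The reverse held for 1 peak, at Tet1, or 5.56%, beside 9.62% of all. These 6 peaks were the ones without a conservative counterpart. Because the conservative list passed a threshold on reproducibility, this is not a separate observation. With 1 group of 2 replicates no test could be made, and whether the difference lies in the cells or in the libraries was not tested.

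**Figure D3:**
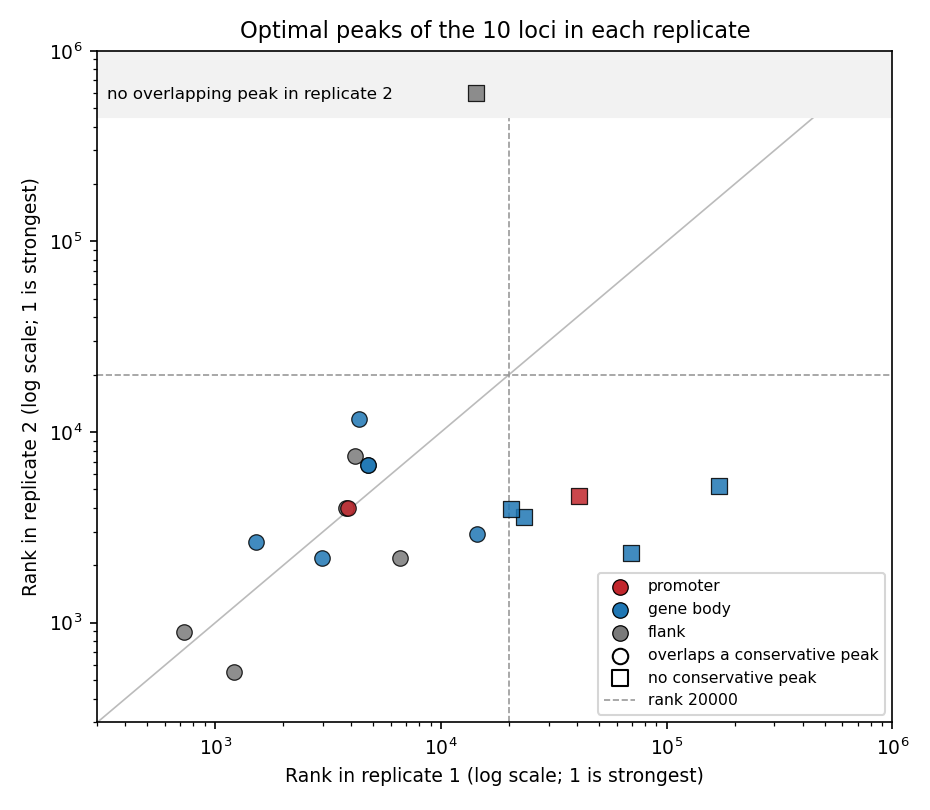
Rank of the 18 optimal peaks in replicate 1 (horizontal) and replicate 2 (vertical), both on log axes where 1 is the strongest. Circles overlap a conservative peak, squares do not, and dashed lines mark rank 20000. The 5 squares at the right lie past rank 20000 in replicate 1 but at ranks 2319 to 5198 in replicate 2, and the square in the grey band has no overlapping peak in replicate 2.

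Other peak lists gave the same genes in part. The conservative list held 13 peaks at these loci, with a promoter peak at 1 gene and any peak at 8, beside 13.6% and 28.8% of all protein-coding genes. The 20000 strongest pooled peaks put 34 peaks there, with a promoter peak at 3 genes, Mbd3, Uhrf1 and Tdg, and any peak at all 10, beside 24.2% and 50.2%. Replicate 1 gave 23 peaks, with the same 3 genes at the promoter and 9 loci, where the shares over all genes were 21.2% and 48.8%. Replicate 2 gave 36 peaks, with Mbd3 and Uhrf1 at the promoter and 9 loci, where they were 23.6% and 50.3%. Dnmt1 was the locus without a peak in both replicates. Over all genes the mean number of locus peaks was 0.979 in replicate 1 and 1.06 in replicate 2, while the members' means were 2.3 and 3.6.

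**Figure D4:**
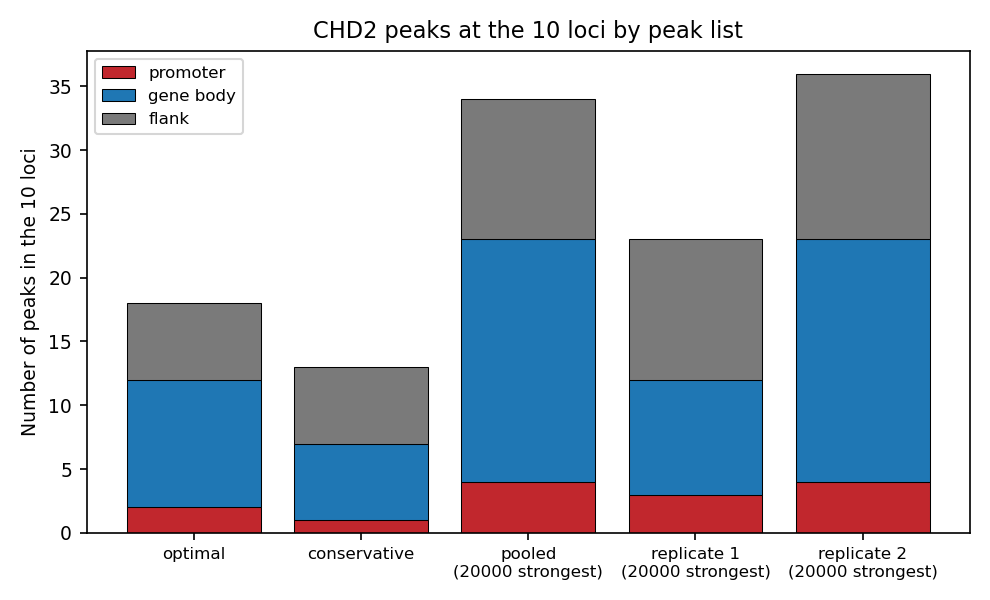
Number of CHD2 peaks at the 10 loci in 5 peak lists, stacked by class. The bars reach 18, 13, 34, 23 and 36, and peaks inside genes rise from 9 in replicate 1 to 19 in replicate 2 while promoter peaks stay between 1 and 4.

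The separate mm9 list held 8 peaks at 6 of the loci, 5 in introns and 3 beyond a 3′ end, and none within 1 kb of any transcript start of a member. Over all protein-coding genes of that annotation 9.96% had a promoter peak and 20.8% a locus peak. In that list, whose signals are on another scale, the flank of Dnmt3l had 131 (rank 732), the flank of Uhrf1 129 (rank 750) and the Tet2 intron 58.2 (rank 1970). The Dnmt3b intron had 53.1 and the Tet3 intron 43.7. Both Tet1 peaks, of 36.0 and 34.7, fell in introns of an annotation that draws the gene over 94549 bp, where RefSeq on mm10 gives 82900 bp. The longer gene may take in places counted as Tet1 flank on mm10, and positions were not converted between builds. The second Dnmt3b peak, beyond the 3′ end, was near the bottom of the list at 32.8 (rank 4601). The flank peak of Uhrf1 lay at -273 bp from the start of a Kdm4b transcript, and the Tet1 peak of 36.0 lay 555 bp from a U6 start. Dnmt1, Dnmt3a, Tdg and Mbd3 had none, so the promoter peak of Mbd3 and the internal peak of Dnmt3a rest on the mm10 lists.

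The starts of these genes differed widely in CpG. The observed over expected CpG ratio of the 300 base windows ran from 0.101 at the outer Dnmt1 start to 1.17 at Tet2, and 9 of the 17 windows reached 0.6, beside 47.7% of all promoter windows. Mbd3 had 0.822 and the internal Dnmt3a start 0.468. The 2 outer Dnmt3a starts, at 0.964 and 1.06, were richer than that and had no peak. The Tet2 and Tdg (0.988) windows were also among the richest, and neither overlapped an optimal peak. The 12 sequences searched on both strands, exactly and with matches allowed to overlap, were the NF-Y box CCAAT, the GC box GGGCGG, part of the NRF1 site as GCATGCGC, the ETS letters CCGGAAG, the E-box CACGTG, the cyclic AMP element TGACGTCA, the AP-1 letters TGANTCA, the E2F letters GGCGGGAA, the YY1 letters AAGATGGC, the palindrome TCTCGCGA, the octamer ATTTGCAT and part of the ZNF143 site as ACTACAATT. CCAAT was in 7 of the 17 windows, beside 38.2% of all, and GGGCGG in 13, beside 46.2%. The 17 are not separate genes: Dnmt1, Dnmt3a and Dnmt3l gave 3 windows each. The 2 outer Dnmt3a windows overlap, so some GGGCGG letters are counted in both. CACGTG was in 3, at Dnmt3a, Dnmt3l and Tdg, beside 7.84%, and TGACGTCA at Tdg alone, beside 2.23%. GCATGCGC was found at 2 starts, both of Dnmt1, beside 3.52%, and GGCGGGAA at 1, the outer start of Uhrf1, beside 2.85%. The ETS, AP-1, YY1, palindrome, octamer and ZNF143 letters were in none of the 17, beside 11.6%, 6.99%, 3.05%, 1.41%, 1.66% and 0.508% of all windows.

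Further genes of the pathway were read from 5 lists of their functions, 65 genes in all, of which 23 (35.4%) had an optimal promoter peak, beside the 14.1% of all protein-coding genes. Among 10 methyl-CpG readers 4 had one. The highest signal was that of Uhrf2, the UHRF1 paralogue, at 325 (rank 61, summit 3 bp inside the gene), and Mbd5 had 30.7. Among the 12 genes of base excision repair 3 had one, the uracil glycosylase gene Ung at 87.4, Neil1 at 38.7 and Parp1 at 18.9. Of 19 genes that target or regulate the enzymes 7 did, led by the remodeller gene Hells at 152, Ogt, whose product is a sugar transferase that binds TET enzymes, at 122, and Dmap1, a DNMT1 partner, at 49.3. The supply of methyl groups and of 2-oxoglutarate, the TET cosubstrate, had 4 of 13, with Mthfd1 at 90.9, Mat2b at 71.3 and Idh1 at 38.1, the last nearer to the start of Pikfyve. Of 12 NuRD partners of MBD3, 5 had a peak, with Gatad2a at 113, Gatad2b at 111 and Hdac1 at 34.9. On the same scale the Mbd3 signal of 32.7 was below those of Gatad2a, Gatad2b and Hdac1. It was above those of the remaining NuRD partners with a peak. Among replicate 1's 8282 strongest peaks the readers numbered 2 and the NuRD partners 3. Counts in these lists are small and carry no test.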

How the data were processed

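CHD2 ChIP-seq of 2 biological replicates of ES-E14 was deposited as peak lists on mm10 and mm9. Per the deposited descriptions, the authors made the optimal and conservative lists by irreproducible discovery rate (IDR) thresholds from both replicates' relaxed lists, the pooled one and 1 further input of undescribed role. The sources used here name no caller, aligner or filter, and the control was not analysed here. The deposited signal per peak has no stated normalization, the deposited −log10 q-value and the deposited score entered no result, and read depth is unknown. Fixed widths were common: 360 bp in 88.2% of optimal peaks.

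A peak was assigned by its summit: promoter (within 1 kb of the outer 5′ end), gene body, or flank (10 kb). Genes are RefSeq GRCm38.p6. Strand came from the RefSeq promoter table for 17492 genes and from GENCODE M1 by symbol or synonym for 4039, together 98.3% of 21900. Peaks of 2 lists were joined by an overlap of 1 bp, taking the strongest. Exons and sequence on mm9 came from GENCODE M1 and its genome. Intervals are exact Clopper-Pearson and cover counting error of genes only. The assignment and motif search were tested on simulated data. Python 3.11.15, pandas 2.3.3 and scipy 1.17.1 were used.

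The members and lists were chosen with earlier results of these data known. Named were all 10 members with their optimal peaks, genes with a closer start, and up to 3 genes per list by signal, of which 1 is not reported here. Alternatives were the other lists, mm9, promoter windows of 500 and 2500 bp, flanks of 0 and 25 kb, and any base of a peak. Any RefSeq start, overlapping peaks counted once, and alternatives for genes with several peaks were added after seeing the data.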

Additional observations from a re-analysis of the deposited data

How the results depend on the processing

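The number of members with any locus peak, 8, stayed between 6 (mm9 list) and 10 (20000 strongest pooled peaks) over 12 alternatives, with 8 and 7 for replicates 1 and 2 at the length of the optimal list, and 9 for each with 20000 peaks. The number with a promoter peak, 1, depended on the list. It was 2 in the pooled list cut to the length of the optimal list, 3 with its 20000 strongest peaks, 3 and 2 with the 20000 strongest of replicates 1 and 2, 0 on mm9 with the outer or any transcript start, and 2 with any RefSeq start on mm10, a choice made after seeing the data. Leaving out a replicate gave 1 to 2. The 18 peaks became 34 and 36 with the 20000 strongest of the pooled list and of replicate 2, 8 at or above the median signal and 8 on mm9, and 11 to 19 without a replicate. Counting overlapping peaks once gave 17, also chosen after seeing the data. So were the alternatives for genes with several peaks. Without a replicate, 3 to 6 genes had at least 2 peaks, 0 to 3 had at least 3 and 0 to 1 had at least 4, and the conservative list gave 1 gene with at least 3 and 0 with at least 4. Genes with a peak at any RefSeq start ranged from 1 to 3 without a replicate. Of the gene lists, the readers moved from 4 to a range of 2 to 4 without a replicate, repair from 3 to 5 at 2500 bp, supply from 4 to 2 in the conservative list, and the NuRD partners from 5 to 3 in the conservative list and at 500 bp and to 3 to 4 without a replicate. The cause of each was not tested. No paired analysis was possible because there is 1 group. Read depth is unknown, so no limit from depth can be given.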
